A study of Mus musculus with 6 samples.

Results

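Gene expression of 39 cytosolic chaperone genes was compared between RAW264.7 cells given phosphate-buffered saline (PBS) and RAW264.7 cells given molybdenum disulfide (MoS2) at 6.25 µg/ml. The 39 genes were taken by name from the 55401 genes of the deposited count table. They comprise 31 genes of the cytosolic heat shock system and the 8 genes listed here for the cytosolic chaperonin. RAW264.7 is an established mouse macrophage-like line, and MoS2 is a layered metal compound used as a nanomaterial. Both groups were labelled genotype WT and by their labels differed in the treatment, with 3 bulk RNA sequencing libraries in each. The sources used here do not give the treatment time. The labels also leave unsaid whether the replicates were separate cultures, so each p-value reflects the spread among these libraries only, and that spread may be technical.

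Cytosolic chaperones bind unfolded or newly made proteins and release them in cycles driven by ATP. HSP70 proteins take up short exposed stretches with the help of J-domain (HSP40) partners, and nucleotide exchange factors such as the BAG and HSP110 proteins reset them. HSP90 acts later on a set of clients that includes kinases and steroid receptors, while the chaperonin (TRiC, also called CCT) is a ring-shaped chamber that folds actin and tubulin. Heat shock factor 1 (HSF1) switches on many of these genes when unfolded proteins accumulate, by binding heat shock elements in their promoters, which are repeats of the letters NGAAN in alternating orientation.

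Promoter sequences were at hand for 31 of the 39 genes, from RefSeq on build GRCm38.p6. The 4 shown cover 170 bases before the annotated start site and 30 bases from it on, 5′ to 3′ on the gene's strand. They were chosen because Hspa1b had the largest fitted rise of the set, and because Hsph1, Dnajb6 and Chordc1 were the only members whose windows held the full pattern, GAANNTTC followed directly by NNGAA. Capitals mark every match to GAANNTTC or TTCNNGAA, which are the same on both strands and can overlap. They lie on GRCm38.p6 at chr17:34959209-34959408 (Hspa1b, minus strand), chr5:149636286-149636485 (Hsph1, minus strand, the second of its listed start sites), chr5:29735728-29735927 (Dnajb6, plus strand) and chr9:18292097-18292296 (Chordc1, plus strand).
Hspa1b: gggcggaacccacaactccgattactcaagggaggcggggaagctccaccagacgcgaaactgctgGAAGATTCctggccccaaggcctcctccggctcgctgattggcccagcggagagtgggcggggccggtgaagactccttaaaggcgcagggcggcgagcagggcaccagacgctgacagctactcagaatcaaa
Hsph1: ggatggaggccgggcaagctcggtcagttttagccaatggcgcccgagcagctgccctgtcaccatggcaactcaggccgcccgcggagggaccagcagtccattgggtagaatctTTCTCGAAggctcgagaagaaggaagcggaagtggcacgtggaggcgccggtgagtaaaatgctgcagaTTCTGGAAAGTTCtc
Dnajb6: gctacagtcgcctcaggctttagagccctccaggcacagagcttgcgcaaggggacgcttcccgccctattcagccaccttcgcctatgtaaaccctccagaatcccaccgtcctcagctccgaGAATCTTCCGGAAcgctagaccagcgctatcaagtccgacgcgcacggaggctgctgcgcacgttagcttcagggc
Chordc1: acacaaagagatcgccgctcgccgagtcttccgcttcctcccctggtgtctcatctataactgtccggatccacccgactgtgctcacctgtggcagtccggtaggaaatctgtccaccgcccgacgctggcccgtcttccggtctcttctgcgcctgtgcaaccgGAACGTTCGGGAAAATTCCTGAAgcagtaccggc

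The Hspa1b window held 1 match, which began 104 bases before the start site. In Hsph1 a first match began 54 bases before the start site, and the full pattern began 15 bases past it. In Dnajb6 the capitals began 46 bases before the start site, and in Chordc1 they began 4 bases before it and ran across it. Over windows of 250 bases before to 50 bases from the start site on, GAANNTTC was found in 11 of 31 members (35.48%), against 9.04% of all 27025 genes with a promoter in the table. These members were Hspa1a, Hspa1b, Hsph1, Dnaja1, Dnajb6, Bag3, Chordc1, Fkbp4, Hspb1, Hspb8 and Cct2. TTCNNGAA was found in 7 of 31 members (22.58%, against 9.60% of all genes). The full pattern of GAANNTTC followed by NNGAA, searched on both strands, was found in 3 of 31 members (9.68%, against 0.66%), or in 15 (48.39%, against 8.15%) when 1 mismatch was allowed. A match is a description of letters, and no binding was measured.

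The 6 libraries held 15767618 to 18412762 counts each. The 10 most abundant genes took 5.25% to 5.64% of the counts in PBS libraries and 18.95% to 19.59% in MoS2 libraries. TMM scaling is meant to correct for shifts in composition. Its factors were 1.305 to 1.3105 in PBS libraries and 0.743 to 0.783 in MoS2 libraries. The part of the 10 most abundant genes in the gap between these factors was not tested. With factors so far apart, the choice of scaling shifts every log2 fold change. The median over all 12972 genes tested was -0.08 with TMM, -0.21 with upper-quartile factors and -0.85 with library totals alone. All 10 macrophage markers were detected, with a summed level of 7867 to 8061 CPM (read counts scaled to library size, with TMM factors) in PBS and 5521 to 5814 in MoS2, and 3 rose and 4 fell with TMM, against 2 and 8 with library totals. Csf1r, the receptor for the macrophage growth factor, fell by 1.90 on the log2 scale and Lyz2 (lysozyme) fell by 0.87, while Itgam (CD11b) rose by 1.47 and Cd68 by 1.09. With each library's trend on gene length removed, Lyz2 was -1.56 and Cd68 0.37. Markers of fibroblasts, epithelial cells, lymphocytes and neutrophils summed to under 1 CPM in every library, and of the 5 endothelial markers all but Vwf, which fell by 1.81, were at or near 0. The part of these marker changes in the results was not tested. In bulk RNA, fewer cells of a kind and less RNA per cell cannot be told apart.

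Across all genes tested, 80.7% were called at an adjusted p under 0.05, 38.3% as higher and 42.4% as lower in MoS2, so a call by itself is the common outcome in these data. Of the 39 members, 36 passed the low-count filter, 29 rose, 3 fell (Hspa13, Bag2 and Chordc1) and 4 were not called (Hspa14, Dnaja1, Bag3 and Hspb8). With library totals in place of TMM, 17 of the 36 were called higher and 13 lower, where 18% and 67.7% of all genes were. The median log2 change of the 36 was 0.86 with TMM and 0.09 with library totals, that is, above the median of all genes under either scaling. With TMM, 17 members rose by at least 1 on the log2 scale, against 19.5% of all genes tested, and Bag2 alone fell by at least 1, against 23.7%. In 30 of the 39 genes every MoS2 library lay above every PBS library (Hspa1a and Cryab, which were not tested, among them), and in 3 every one lay below. Of all genes tested, 38.8% and 43.1% did so. The members together took 0.851% to 0.924% of all counts in PBS libraries and 1.083% to 1.111% in MoS2 libraries.

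**Figure D1:**
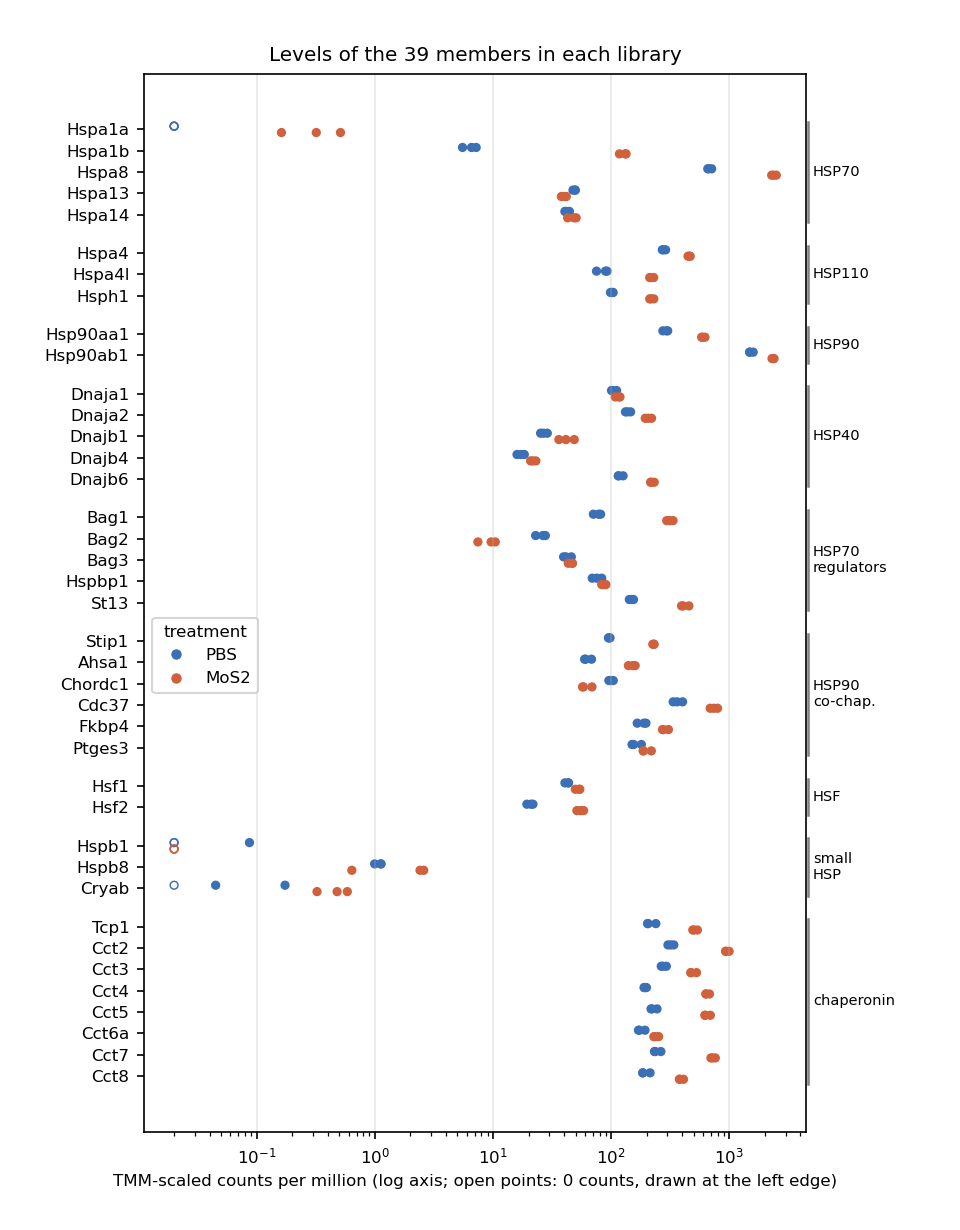
Level of each of the 39 genes in each of the 6 libraries, as TMM-scaled CPM on a log axis, grouped by role; blue points are PBS libraries, orange points MoS2 libraries, and open points mark 0 counts. Hspa1b lies between 5.53 and 7.21 CPM in PBS and between 118 and 134 CPM in MoS2, while Bag3 and Dnaja1 overlap between the groups.

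Among the HSP70 genes, the stress-inducible copy moved most. Hspa1b was at 6.59, 7.21 and 5.53 CPM in the PBS libraries and 132, 118 and 134 CPM in the MoS2 libraries, with no overlap. That is a rise of 4.31 ± 0.10 (SE) on the log2 scale, or 19.8-fold (adjusted p = 3.48e-13), and 3.53 with library totals. Its change stood at percentile 99.0 of all genes tested. Hspa1b lies at chr17:34956436-34959238 and its neighbouring copy Hspa1a at chr17:34969190-34972156 (GRCm38, minus strand). Hspa1a had 0 counts in all PBS libraries and 0.319, 0.162 and 0.512 CPM in the MoS2 libraries, or 13 counts in all. Against a floor of 3 counts over the PBS group that is 7.69-fold higher, with counting error in the 13 left out. The transcripts of Hspa1a and Hspa1b are 99.23% identical over 2201 aligned bases, and their 300-base promoter windows differ at 4 positions, so reads cannot be split between them with certainty. Their summed counts rose by 4.31 ± 0.10 on the log2 scale (adjusted p = 3.54e-13). Hspa1b supplied nearly all of that sum, with 441 counts in PBS and 4935 in MoS2 against 0 and 13 for Hspa1a. The sum therefore does not show whether Hspa1a itself rose.

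Hspa8, the constitutive HSP70 of the cytosol (chr9:40800984-40810087, plus strand), rose from 709.8, 658 and 669.7 CPM to 2361, 2289 and 2503 CPM. The groups were far apart, with a log2 change of 1.81 ± 0.06 (adjusted p = 1.23e-11) and of 1.04 with library totals. A processed pseudogene of Hspa8, Gm15459 (chr5:5781615-5783555), is 99.74% identical to it over 1941 bases and carried 354, 327 and 358 CPM in PBS and 909, 936 and 887 CPM in MoS2. Counts given to Gm15459 and 2 lesser copies came to 51.33% of those of Hspa8 in PBS and 38.48% in MoS2. The level of Hspa8 is uncertain to that extent, since the handling of reads with several matches was not stated. With these copies added, the log2 change of Hspa8 was 1.68 ± 0.06. Hspa13, an HSP70-like ATPase of microsomes listed here with the cytosolic genes, fell from 49.5, 49.8 and 47.6 to 41.8, 37.9 and 40.4 CPM. Its log2 change was -0.29 ± 0.07 (adjusted p = 0.0026), and its groups did not overlap. Hspa14, which works at the ribosome, had a log2 change of 0.17 ± 0.08 that was not called (adjusted p = 0.0766, and -0.61 with library totals). It was called without PBS replicate 1 (0.20, adjusted p = 0.0382) and without MoS2 replicate 1 (0.24, adjusted p = 0.0277). Its adjusted p ran from 1.05e-05, for the fall with library totals, to 0.718 over all alternatives.

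The 3 HSP110 genes, whose products exchange the nucleotide of HSP70 and hold unfolded proteins, all rose with TMM. Hspa4 was at 289, 276 and 271 CPM in PBS and 468, 460.0 and 448 CPM in MoS2 (log2 change 0.72, adjusted p = 5.86e-08), and this became -0.06 with library totals. Hspa4l went from 75.3, 89.7 and 92.3 CPM to 216, 229 and 212 CPM (log2 change 1.35, adjusted p = 1.75e-09). Hsph1, the heat-inducible member of the family, went from 103, 104 and 98.8 CPM to 217, 212 and 230.0 CPM (log2 change 1.11, adjusted p = 1.16e-09). In each of these genes every MoS2 library exceeded every PBS library. Hspa4l and Hsph1 kept a positive change with library totals (0.58 and 0.34).

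Both cytosolic HSP90 genes rose with TMM. The inducible form Hsp90aa1 went from 302, 274 and 294 CPM to 594, 585 and 623 CPM, a log2 change of 1.05 ± 0.06 (adjusted p = 2e-09) and of 0.28 with library totals. The constitutive form Hsp90ab1 went from 1595, 1494 and 1487 CPM to 2303, 2356 and 2396 CPM, a log2 change of 0.62 ± 0.06 (adjusted p = 2.08e-07) that turned to -0.15 with library totals. Neither gene's groups overlapped on the TMM scale. Per kilobase of exon, Hsp90ab1 was the most abundant member in PBS, at 509 ± 20.2 reads per kilobase of exon at TMM-scaled depth (RPKM, SD, n = 3), followed by Hspa8 (158 ± 6.28) and Cct2 (126 ± 7.19). In MoS2 the same 3 genes led, at 784 ± 15.5, 554 ± 25.4 and 374 ± 14.1 RPKM, followed by Cct5 (234 ± 14.2) and Bag1 (233 ± 14.3), which did not differ beyond their spread. With the length of the principal transcript in place of all exons, Hspa8 (996 ± 45.6 RPKM) stood above Hsp90ab1 (933 ± 18.5 RPKM) in MoS2. It stood below Hsp90ab1 in PBS (284 ± 11.3 against 605 ± 23.98), so the order of the pair in MoS2 depends on the length used. These levels leave out the counts given to near-identical copies of Hspa8, which came to 51.33% of its own in PBS and 38.48% in MoS2.

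**Figure D2:**
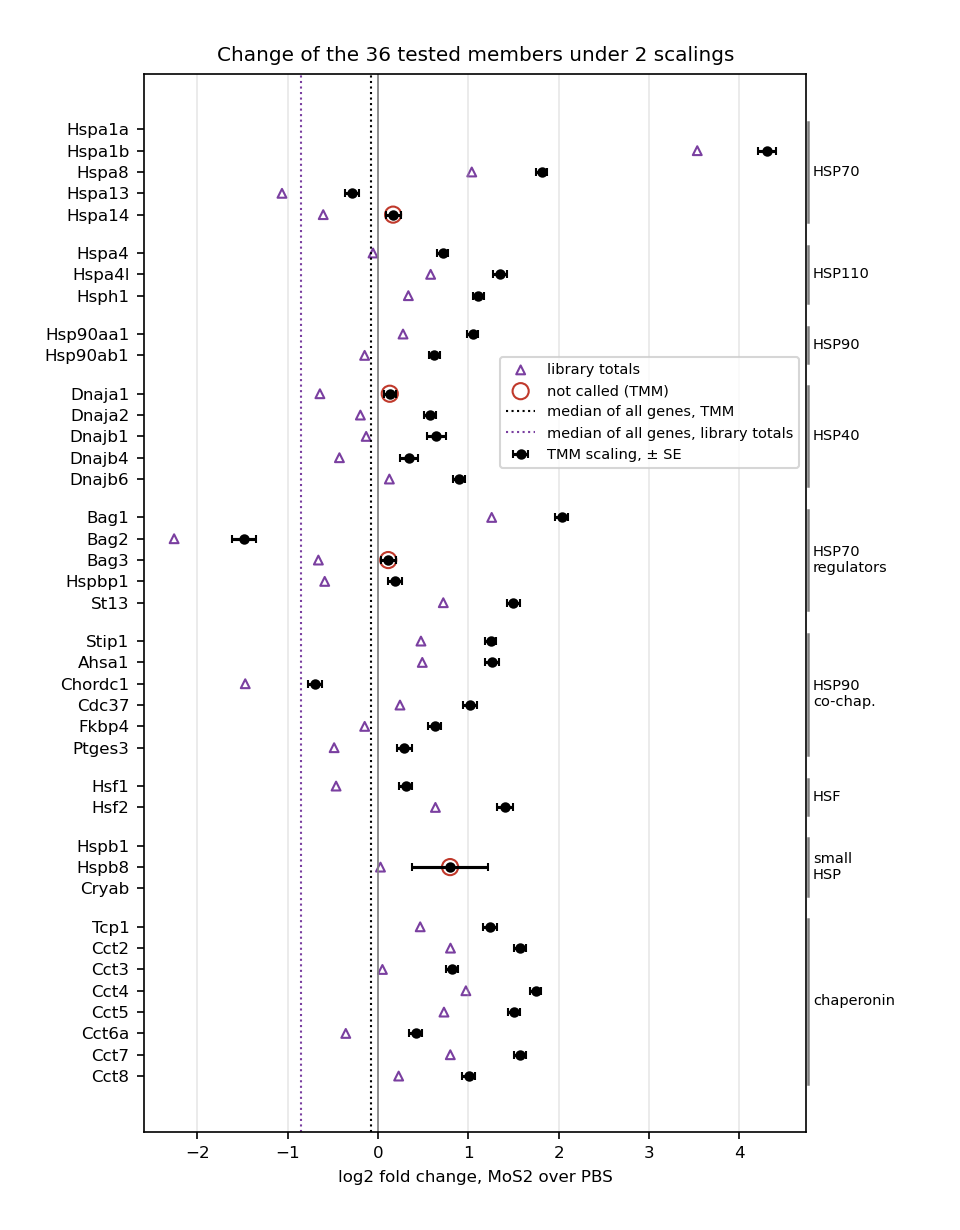
Log2 fold change, MoS2 over PBS, of the 36 tested members, grouped by role; black points with bars are TMM estimates ± SE, open triangles the same genes with library totals, red circles mark the 4 members not called, and dotted lines the medians of all genes. Hspa1b and Bag1 lie farthest to the right, Bag2 and Chordc1 farthest to the left, and the triangles of 13 members lie on the other side of 0 from their points.

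J-domain partners deliver clients to HSP70 and stimulate its ATPase. Of the 5 members, 4 rose with TMM and none rose with library totals, where 38.3% and 18% of all genes did. Dnaja2 went from 146, 137 and 132 CPM to 206, 195 and 220.2 CPM, a log2 change of 0.58 (adjusted p = 2.53e-06, and -0.20 with library totals). Dnajb6, a suppressor of protein aggregation, went from 126, 115 and 116 CPM to 219, 216 and 232 CPM, a log2 change of 0.90 (adjusted p = 1.52e-08, and 0.13, not called, with library totals). The groups of both genes were separate. Dnajb1, the main inducible HSP40, had a log2 change of 0.64 ± 0.11 (adjusted p = 6.81e-05) that was -0.13 with library totals, and Dnajb4 one of 0.35 ± 0.10 (adjusted p = 0.00594) that was -0.43. Dnaja1 did not pass the test. It was at 111, 101 and 103 CPM in PBS and 117, 109 and 119 CPM in MoS2, overlapping ranges with a log2 change of 0.13 ± 0.07 (adjusted p = 0.0895) that was -0.64 with library totals. Without PBS replicate 1 the change of Dnaja1 was called (0.17, adjusted p = 0.0223). Over all alternatives its adjusted p ran from 7.04e-07, for the fall with library totals, to 1.0. The opposite-strand gene Smu1 overlaps 7.05% of the exons of Dnaja1, and the counting's strand setting was not stated.

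The regulators of HSP70 split in direction. Bag1, an exchange factor that links HSP70 to the proteasome, went from 81.6, 78.4 and 70.8 CPM to 314, 296 and 334 CPM. With a log2 change of 2.03 ± 0.07 (adjusted p = 2.01e-11) it had the largest rise of the set after Hspa1b, also with library totals (1.26). Bag1 has short exons in all (1349 bases), and with each library's trend on gene length removed its change was 1.37, below those of Hspa8, Cct4, Cct7, St13, Hsf2 and Hspa4l (1.54 to 1.84), so that rank was lost. St13 (Hip), which slows the release of ADP from HSP70, went from 155, 148 and 143 CPM to 395, 406 and 456 CPM (log2 change 1.497, adjusted p = 1.91e-10, and 0.72 with library totals). Bag2, an inhibitor of the ubiquitin ligase CHIP, went the other way, from 27.7, 23.0 and 26.5 CPM to 10.5, 7.46 and 9.66 CPM (log2 change -1.48 ± 0.13, adjusted p = 1.4e-07, and -2.26 with library totals). None of these 3 genes overlapped between groups.

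Bag3, a stress-induced exchange factor of selective autophagy and a well-known HSF1 target, was not called. It was at 39.6, 41.3 and 46.1 CPM in PBS and 47.0, 43.4 and 47.0 CPM in MoS2, with overlapping groups and a log2 change of 0.11 ± 0.08 (adjusted p = 0.213) that was -0.66 with library totals. Hspbp1, another exchange factor, was called higher by a small margin (0.18 ± 0.08, adjusted p = 0.0416) although its groups overlapped, and its change was -0.59 with library totals. The call on Hspbp1 was lost without PBS replicate 2 (adjusted p = 0.118), PBS replicate 3 (0.24), MoS2 replicate 1 (0.0815) or MoS2 replicate 3 (0.123). Its adjusted p ran from 6.81e-06, for the fall with library totals, to 0.674 over all alternatives.

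Of the 6 co-chaperones of HSP90, 5 rose and Chordc1 fell with TMM, where 38.3% of all genes rose and 42.4% fell. Cdc37, which brings kinases to HSP90, went from 403, 362 and 335 CPM to 741, 690.1 and 796 CPM (log2 change 1.02, adjusted p = 2.72e-08, and 0.24 with library totals). Ahsa1, the activator of the HSP90 ATPase, went from 68.3, 60.9 and 59.7 CPM to 159.9, 140.1 and 153 CPM (log2 change 1.26, adjusted p = 2.16e-09, and 0.49 with library totals). Stip1 (Hop), which bridges HSP70 and HSP90, rose nearly as much (1.25 ± 0.06, adjusted p = 2.06e-10, and 0.48 with library totals). Fkbp4, an immunophilin of steroid receptor complexes, was at 197, 189.8 and 166 CPM in PBS and 272, 276 and 306 CPM in MoS2 (log2 change 0.63, adjusted p = 3.34e-06, and -0.15 with library totals). Ptges3 (p23) had a log2 change of 0.29 ± 0.08 (adjusted p = 0.00571) that was -0.49 with library totals. Chordc1, an HSP90-binding protein with zinc-binding CHORD domains, went from 104, 95.8 and 98.9 CPM to 58.4, 57.3 and 68.9 CPM. Every MoS2 library of Chordc1 lay below every PBS library, with a log2 change of -0.69 ± 0.08 (adjusted p = 2.01e-06) and of -1.47 with library totals.

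Chordc1 was thus among the 3 members that fell, while its promoter held the longest run of matches among the 4 shown. The other members with the full pattern, Hsph1 and Dnajb6, had log2 changes of 1.11 and 0.90 (with library totals 0.34 and 0.13). Of the 11 members with GAANNTTC, 9 were tested, of which 5 rose (Hspa1b, Hsph1, Dnajb6, Fkbp4 and Cct2), 1 fell (Chordc1) and 3 were not called (Dnaja1, Bag3 and Hspb8). With library totals 3 of the 9 rose (Hspa1b, Hsph1 and Cct2) and 3 fell (Chordc1, Dnaja1 and Bag3). Of all genes tested, 38.3% rose and 42.4% fell with TMM, and 18% and 67.7% with library totals.

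Both heat shock factors rose with TMM, by unequal amounts. Hsf1, the main stress-responsive factor, went from 40.7, 43.7 and 43.3 CPM to 54.4, 53.8 and 49.9 CPM, a log2 change of 0.31 ± 0.07 (adjusted p = 0.00168) that was -0.46 with library totals. Hsf2, a developmental factor that can pair with Hsf1, went from 21.8, 21.02 and 19.4 CPM to 55.2, 58.5 and 51.3 CPM, a log2 change of 1.41 ± 0.09 (adjusted p = 2.55e-09) and of 0.64 with library totals. The MoS2 libraries exceeded the PBS libraries in both genes on the TMM scale.

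The small heat shock proteins, which hold unfolded proteins without ATP, were barely detected. Hspb1 had 2 counts over the 3 PBS libraries and 0 over the 3 MoS2 libraries, both under the floor of 3 counts, and both of its PBS counts came from replicate 2. Cryab, the lens and muscle chaperone alpha-B-crystallin, was at 0, 0.174 and 0.0449 CPM in PBS and 0.479, 0.324 and 0.585 CPM in MoS2. That is 5 counts in PBS and 18 in MoS2, a ratio of 6.39 with an exact 95% counting interval of 2.28 to 22.0 that covers counting error alone. Neither gene entered the test. Hspb8, a partner of Bag3, was at 0.997, 1.13 and 1.12 CPM in PBS and 0.639, 2.59 and 2.41 CPM in MoS2, a log2 change of 0.80 ± 0.42 (adjusted p = 0.0939). The MoS2 libraries of Hspb8 lay on both sides of the PBS libraries, with replicate 1 the low one. Without MoS2 replicate 1 the log2 change was 1.21 and was called (adjusted p = 0.00539), and over all alternatives the adjusted p of Hspb8 ran from 0.00539 to 0.953.

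All 8 chaperonin subunit genes, which lie on 8 different chromosomes, rose with TMM, by 0.42 to 1.75 on the log2 scale with a median of 1.37. With library totals 6 rose, Cct3 was not called and Cct6a fell. Of all genes, 38.3% rose with TMM, and 18% rose and 67.7% fell with library totals. Cct2, the subunit with the highest level, went from 339.7, 320.3 and 303 CPM to 941, 931 and 998 CPM (log2 change 1.58, adjusted p = 6.01e-11). Cct7 went from 264, 236 and 233 CPM to 719.7, 700.3 and 762 CPM (log2 change 1.57, adjusted p = 9.53e-11). Cct4 rose most, from 199, 193 and 189.9 CPM to 636, 635 and 681 CPM (log2 change 1.75, adjusted p = 1.47e-11). With library totals these 3 subunits still rose, by 0.80, 0.80 and 0.97. The remaining subunits were Cct5 (1.504), Tcp1 (1.24), Cct8 (1.002) and Cct3 (0.82, and 0.05 with library totals). Cct6a moved least, from 194, 173 and 171 CPM to 234, 230.1 and 253 CPM, and its log2 change of 0.42 (adjusted p = 7.26e-05) was -0.36 with library totals. In all 8 genes every MoS2 library lay above every PBS library on the TMM scale, as in 38.8% of all genes tested.

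The subunits, which are assembled in equal numbers in the complex, were also set against one another within each library, which no scaling factor affects. These relative levels are given without a test. Relative to the mean of the 8 subunits per kilobase in its library, Cct6a went from 0.808 ± 0.0082 (SD, n = 3) in PBS to 0.426 ± 0.0028 in MoS2. Cct3 went from 0.714 ± 0.0103 to 0.498 ± 0.0092, and Cct8 from 1.03 ± 0.0263 to 0.815 ± 0.0019. The relative level of Cct2 was 2.05 ± 0.0377 in PBS and 2.41 ± 0.0214 in MoS2, and that of Cct4 was 0.756 ± 0.028 and 0.998 ± 0.0061. None of the 8 relative levels overlapped between groups: Cct2, Cct4, Cct5 and Cct7 were higher in MoS2 and Tcp1, Cct3, Cct6a and Cct8 lower, with either measure of gene length. The coefficient of variation over the 8 subunits was 48.1%, 50.2% and 48.1% in the PBS libraries and 66.8%, 66.5% and 65.8% in the MoS2 libraries. With the length of the principal transcript it was 30.4%, 32.6% and 30.8% in PBS and 45.6%, 45.2% and 44.8% in MoS2, lower in every library but again without overlap.

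Some limits touch this balance. Each measure gives a gene the same length in every library. The relative levels and their coefficient of variation thus keep any length trend. With that trend removed, the log2 changes of Tcp1, Cct5 and Cct2 lay close together, at 1.31, 1.33 and 1.35 (1.24, 1.504 and 1.58 before). Cct4 (1.765) and Cct7 (1.69) still lay above these, and Cct3 (0.93), Cct8 (0.88) and Cct6a (0.37) below. The part of length in the split of Tcp1 from Cct5 and Cct2 was not tested. GENCODE M21 lists Cct6a as a processed transcript rather than a protein-coding gene. Opposite-strand neighbours overlap 12.49% of the exons of Cct6a (Psph), 11.35% of those of Tcp1 (Acat3) and 6.22% of those of Cct8 (Usp16). Reads from such partners cannot be told apart without a strand setting. Over all libraries Acat3 held only 38 counts against 34504 for Tcp1, which Mrpl18 (2819 counts) also overlaps, by 2.8%. Psph held 9470 counts against 21477 for Cct6a, and Usp16 held 4323 against 28393 for Cct8.

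**Figure D3:**
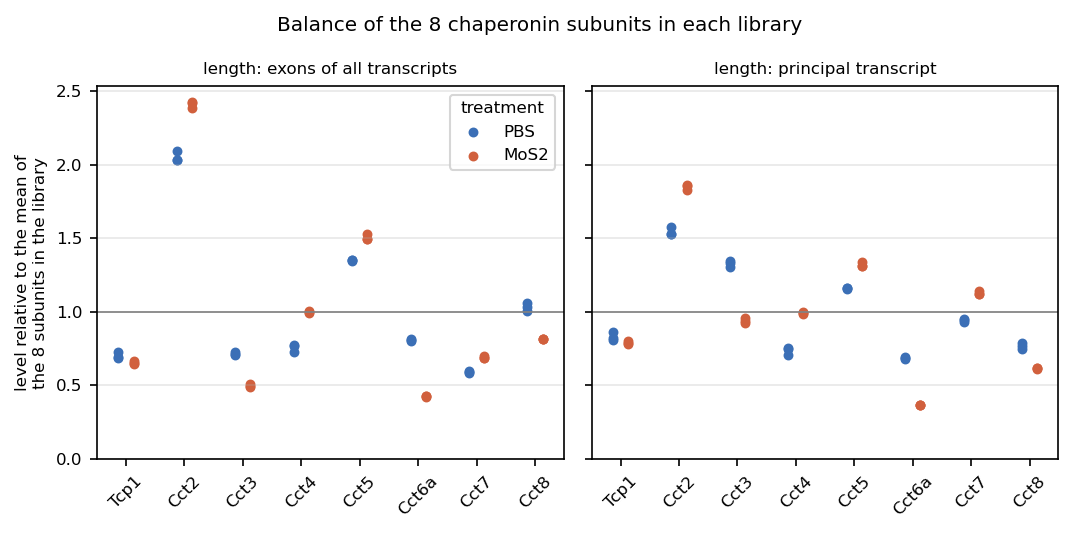
Level of each chaperonin subunit relative to the mean of the 8 subunits in the same library, per length of all exons (left) or of the principal transcript (right); points are single libraries, blue PBS and orange MoS2. In both panels Cct6a, Cct3 and Cct8 sit lower in MoS2 and Cct2, Cct4, Cct5 and Cct7 higher, with no overlap.

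Ratios between functionally paired members were compared within libraries in the same way. An exact two-sided permutation test of 3 against 3 libraries cannot give a p under 0.10, so none of the 10 ratios could pass 0.05. The ratio of Hsp90aa1 to Hsp90ab1 was 0.144, 0.140 and 0.151 in PBS and 0.197, 0.189 and 0.198 in MoS2, a log2 difference of 0.43. Every MoS2 library had a higher share of the inducible form than any PBS library. The summed Hspa1a and Hspa1b level was 0.0145 of the Hspa8 level in PBS and 0.0824 of it in MoS2 (geometric means), a log2 difference of 2.51. Hspa8 itself went from 0.311 to 0.707 of the Hsp90ab1 level (log2 difference 1.19) and from 3.68 to 5.46 times the Tcp1 level (0.57). In every MoS2 library Hspa8 stood higher against both genes than in any PBS library. The ratios with Hspa8 leave out the counts given to its near-identical copies.

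Several other ratios were lower in every MoS2 library than in any PBS library. Bag3 was at 0.256, 0.278 and 0.343 of the Bag1 level in PBS and at 0.0789, 0.0772 and 0.0739 in MoS2, a log2 difference of -1.92. The ratio of Hsf1 to Hsf2 was 2.52, 2.81 and 3.03 in PBS and 1.33, 1.24 and 1.31 in MoS2, a log2 difference of -1.10. The log2 difference was -0.45 for Dnaja1 to Dnaja2 and -0.25 for Stip1 to St13. It was 0.39, higher in MoS2, for Hsph1 to Hspa4. These 9 ratios separated the groups in full, with the smallest exact p the design allows (0.10, or 0.1111 adjusted over the 10 ratios). The ratio of Dnajb1 to Dnajb6 overlapped between the groups (log2 difference -0.27, exact permutation p = 0.20, adjusted 0.20). All 10 ratios keep any length trend between libraries. With that trend removed, Dnaja1 and Dnaja2 lay closer together, at log2 changes of 0.27 and 0.44 (0.13 and 0.58 before). Stip1 and St13 lay farther apart, at 0.91 and 1.66 (1.25 and 1.497 before). The part of length in the ratios was not tested.

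**Figure D4:**
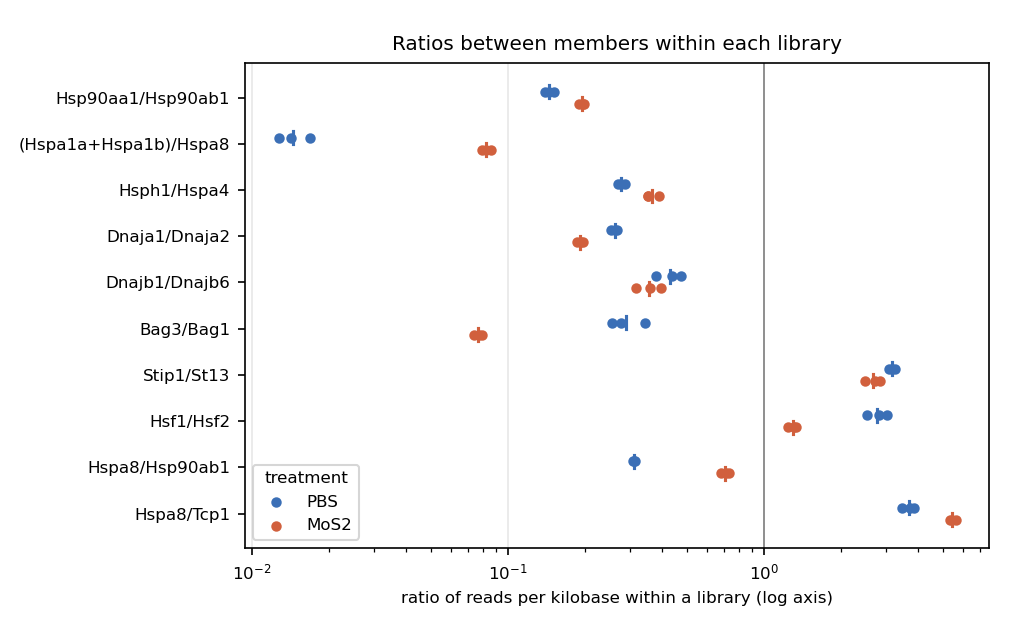
Ratios between pairs of members, as reads per kilobase of exon within each library on a log axis; points are single libraries, short vertical bars the geometric mean of the group, blue PBS and orange MoS2. The groups are apart in all ratios but Dnajb1 to Dnajb6, with the widest gaps for summed Hspa1a and Hspa1b to Hspa8 and for Bag3 to Bag1.

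Genes around the members did not all move with them. The shares of all genes tested were 38.3% higher and 42.4% lower with TMM, and 18% and 67.7% with library totals. Of 18 other J-domain proteins listed here, 17 were tested, of which 3 rose and 10 fell with TMM, with a median log2 change of -0.28. With library totals 1 rose and 15 fell (median -1.05). Dnajc2, which works at the ribosome, rose by 0.99, while Dnajb14, Dnajb12 and Dnajc13, J-domain proteins of membranes, fell by 1.19, 1.53 and 1.19 on the log2 scale. Of 27 further co-chaperones of HSP70 and HSP90, 25 were tested, and 12 rose and 7 fell with TMM (median 0.05). With library totals 4 rose and 16 fell (median -0.72), where the median of all genes tested was -0.85. The phosphatase Ppp5c rose by 1.15, Sugt1 (SGT1) by 1.66 and Fkbp8 by 1.21, whereas Bag5 fell by 2.46. The directions of Dnajc2, Ppp5c, Sugt1 and Fkbp8 were the same with library totals (changes of 0.22, 0.37, 0.89 and 0.44). Of 7 other small heat shock genes, 3 were tested, and Hspb11 rose by 1.11 with TMM while Hspb6 (-0.17) and Hspb7 (-0.49) were not called. With library totals Hspb11 was not called (0.34, adjusted p = 0.0966), and Hspb6 (-0.94, adjusted p = 0.000256) and Hspb7 (-1.25, adjusted p = 0.0205) fell.

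Of 9 further heat shock factors and regulators of HSF1, 6 were tested, and 3 rose and 3 fell with TMM, against 2 and 3 with library totals. The shares over all genes were 38.3% and 42.4% with TMM, and 18% and 67.7% with library totals. Ier5, an immediate early gene whose product acts on HSF1, was at 78.2, 73.2 and 68.8 CPM in PBS and 433, 394 and 455 CPM in MoS2, a rise of 2.54 ± 0.08 on the log2 scale (adjusted p = 3.19e-12, and 1.77 with library totals). Hsbp1, which binds the trimer of HSF1, rose by 1.70. The acetyltransferase Ep300 fell by 1.47 and the deacetylase Sirt1 by 1.37, both of which act on HSF1.

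Prefoldin hands actin and tubulin to the chaperonin. Of 11 genes of prefoldin and chaperonin cofactors, 10 were tested, and 7 rose and 1 fell with TMM (median log2 change 1.11). With library totals 5 rose and 3 fell (median 0.33). All genes tested gave 38.3% higher and 42.4% lower with TMM, and 18% and 67.7% with library totals. The subunits Pfdn1, Pfdn4, Pfdn5 and Pfdn2 rose by 2.40, 1.88, 1.29 and 1.35, and they rose with library totals as well (by 1.62, 1.11, 0.52 and 0.57). These are short genes, and with each library's trend on gene length removed the median of the list was 0.47, and the changes of Pfdn1 and Pfdn5 were 1.59 and 0.65.

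Chaperones of other compartments gave a scale for the cytosolic set. Among all genes tested, 38.3% rose and 42.4% fell with TMM, and 18% and 67.7% with library totals. Of 12 chaperone genes of the endoplasmic reticulum, 11 rose and 1 fell with TMM (median log2 change 1.24), against 8 and 3 with library totals. Hspa5 (BiP), the HSP70 of that compartment, was at 826, 767 and 764 CPM in PBS and 22798, 22152 and 24249.9 CPM in MoS2, a rise of 4.88 ± 0.07, and Calr, Sdf2l1 and Hsp90b1 rose by 3.02, 2.93 and 2.78. Of 11 mitochondrial chaperone genes 10 rose and none fell with TMM (median 0.73), against 5 and 3 with library totals. They were led in adjusted p by Hspe1 (1.90), Grpel2 (1.56), Clpb (1.38) and Dnajc15 (1.66). With the length trend removed, Sdf2l1 was 2.12 and Hspe1 1.301. Under library totals the medians were 0.47 for the endoplasmic reticulum, -0.04 for the mitochondria and 0.09 for the cytosolic members. The summed level of the list went from 2651 to 2793 CPM in PBS up to 29156 to 31702 CPM in MoS2 for the endoplasmic reticulum, and from 6503 to 7091 CPM up to 13916 to 14958 CPM for the cytosolic members. The differences between the lists were not tested.

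**Figure D5:**
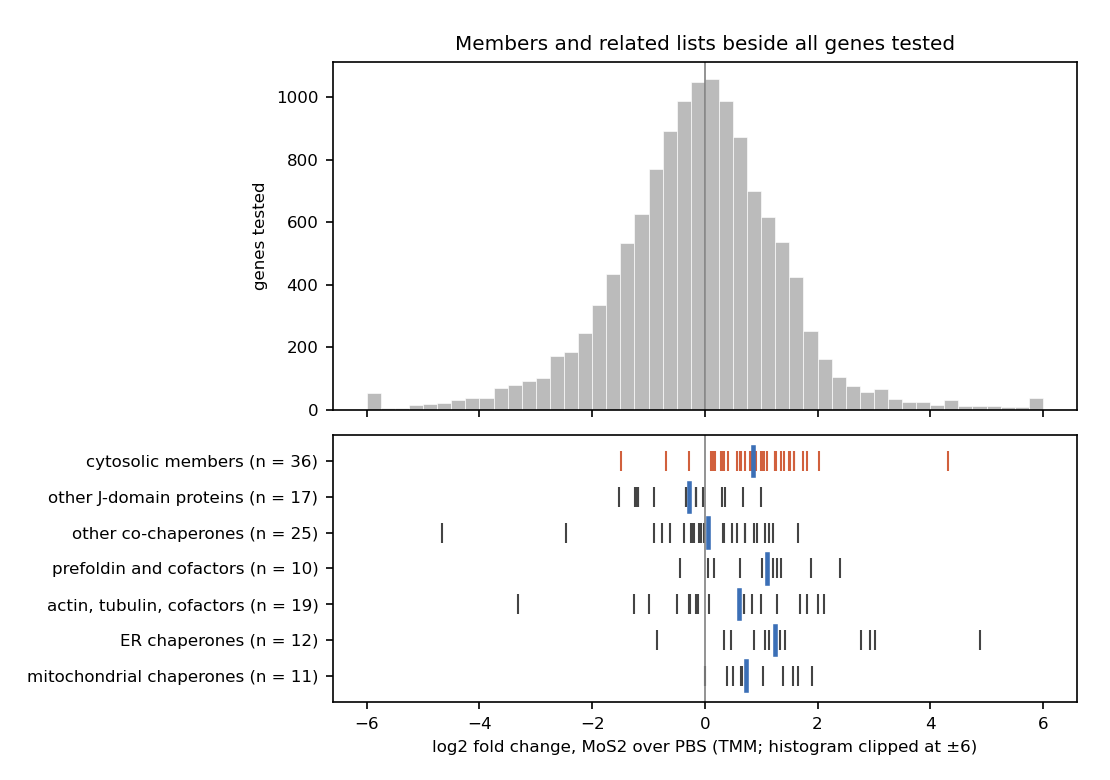
Top, number of all 12972 genes tested by log2 fold change, MoS2 over PBS (TMM); bottom, each tested gene of the cytosolic members (orange ticks) and of related lists (grey ticks), with the median of each list in blue. The cytosolic members centre at 0.86 with Hspa1b alone far to the right, the other J-domain proteins centre below 0, and Hspa5 is the tick farthest right.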

How the data were processed

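Gene expression was measured by bulk RNA sequencing in 6 libraries. Per the labels' protocols, TRIzol was used for extraction, a NEBNext Ultra kit for the libraries and an Illumina instrument for paired-end sequencing. The authors deposited raw counts per gene as whole numbers. The submitters' processing notes list the tools fastp (0.20.0), HISAT2 (2.1.0) and featureCounts (1.6.1) and the build GRCh38. The identifiers are mouse genes, however, and 54349 of 55401 have identical coordinates in GENCODE M21 (GRCm38), so GRCm38 is given here. The handling of multi-mapping reads and the strand setting were not stated.

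All 6 libraries entered 1 fit with treatment as its term, tested by the quasi-likelihood F test of edgeR 4.0.16 under R 4.3.3. TMM factors and edgeR's default filter were used (about 10 counts in 3 libraries), which kept 12972 genes. P-values were adjusted by Benjamini-Hochberg over all of these, with calls at 0.05. The prior count was 0.125, and each SE was derived as the absolute log2 change divided by the root of F. CPM are TMM-scaled. RPKM and ratios use the exon length in the deposited table. Near-identical copies were sought with blastn 2.17.0 (at least 150 bases and 50% of the copy's length at 98% identity). The fit was tested on simulated data in which few genes changed, as many up as down. That test does not cover a shift in composition such as that between these groups.

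The alternatives changed the scaling (RLE or upper-quartile factors, library totals), the filter (none, or at least 1 CPM in 3 libraries), the tool (DESeq2 1.42.0, or voom in limma 3.58.1), the call (0.01, or glmTreat with a fold of 1.2) or the model (a replicate block). Others summed Hspa1a with Hspa1b, removed the trend on gene length, added 1 count to ratios or left out each library in turn. Adding near-identical copies and using the principal transcript length were chosen after seeing the data. The members and all gene lists were chosen with earlier results of these data known. Every member is named, with values per library for the 2 most abundant tested members of each role, those with the largest and smallest change, and Hspa1a, Hspa1b, both HSP90 genes, both factors and the small heat shock genes. Of each other list, up to 4 tested genes with the smallest adjusted p are named. Each of the 192 listed genes was found in the table. No 2 libraries agreed within sampling noise.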

Additional observations from a re-analysis of the deposited data

How the results depend on the processing

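Members called higher numbered 28 to 31 and members called lower 3 when each library was left out in turn. Library totals were the only alternative that moved these counts by over 1.5 times, to 17 higher and 13 lower. That setting also turned the log2 change of 13 members, to -0.61 for Hspa14, -0.055 for Hspa4, -0.15 for Hsp90ab1, -0.64 for Dnaja1, -0.20 for Dnaja2, -0.13 for Dnajb1, -0.43 for Dnajb4, -0.66 for Bag3, -0.59 for Hspbp1, -0.15 for Fkbp4, -0.49 for Ptges3, -0.46 for Hsf1 and -0.36 for Cct6a. Upper-quartile factors turned Bag3 to -0.016. Removal of the length trend turned Bag3 to -0.11, Hspbp1 to -0.23 and Ptges3 to -0.020. Library totals by construction lower every log2 change by nearly the same amount, and for the other turns the cause was not tested. The other scalings, filters and tools gave 25 to 31 members higher and 2 to 4 lower, the lowest with the test against a fold of 1.2. RLE factors gave 31 higher, and 2 members not called with TMM were called with them. Replicate numbers did not pair the libraries (correlations of deviations of -0.031, 0.05 and -0.367 for numbers 1, 2 and 3), and a replicate block gave 28 higher and 3 lower, with the call on Hspbp1 lost. The within-library ratios kept their direction with 1 count added and without any single library. The rise in the chaperonin coefficient of variation was 17.5 percentage points (17.2 to 18.2 with a library left out) and 13.95 with the principal transcript length. These rises and the ratios keep any length trend between libraries. Low depth limits Hspa1a, Hspb1, Cryab and Hspb8, which had 0 to 74 counts per group.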

Other observations

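Actin and tubulin are the main clients of the chaperonin, and their genes moved in both directions, as all genes tested did. Of 19 genes for actins, tubulins and tubulin cofactors, all were tested, and 10 rose and 6 fell with TMM, against 6 and 10 with library totals. Over all genes tested, 38.3% rose and 42.4% fell with TMM, and 18% and 67.7% with library totals. Cytoplasmic gamma-actin (Actg1) was at 331, 324 and 339 CPM in PBS and 795, 820.3 and 813 CPM in MoS2, a log2 change of 1.29 (0.52 with library totals), and Tuba1a rose by 1.81 and the cofactor Tbca by 1.68 (1.03 and 0.91 with library totals). Tbca has 811 bases of exon, and with each library's trend on gene length removed its change was 0.64. The cofactor Tbcc went the other way, from 17.8, 15.3 and 15.2 CPM to 1.52, 1.13 and 2.12 CPM, a log2 change of -3.32 (-4.09 with the length trend removed). The pair Tbca and Tbcc thus changed in opposite directions with either scaling (-4.09 for Tbcc with library totals), and neither overlapped between groups.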
